A study of Mus musculus with 9 samples.

Results

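The 32 genes described here encode the mitochondrial pyruvate carrier, the pyruvate dehydrogenase complex with its kinases and phosphatases, and enzymes of the tricarboxylic acid cycle. They were taken as a list of named genes by their known roles, with no threshold on a measured value, and all 32 were found among the 34669 genes of the table. The data are FPKM values (fragments counted per gene, scaled for gene length and sequencing depth) from messenger RNA sequencing of mouse renal cortex. All mice were male, wild-type C57BL/6 and 10 weeks old, and there were 3 libraries in each of 3 groups. In bilateral renal ischemia-reperfusion injury (bIRI), both renal pedicles were clamped for 30 min, and the cortex was taken on day 14. The bIRI+Vehicle mice were gavaged daily with vehicle and the bIRI+TJ0113 mice with the compound TJ0113, from 3 days before surgery until sacrifice. The sham mice had the same surgery without clamping, and the sources used here do not say whether they were gavaged or on which day they were killed. The groups are called sham, vehicle and TJ0113 below. Both contrasts with sham therefore hold clamping, and gavage with it if the sham mice were not gavaged. The contrast of TJ0113 with sham also holds the compound, and the effect of TJ0113 in unclamped mice cannot be read from these samples.

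Pyruvate enters the mitochondrion through a carrier of the inner membrane, and the pyruvate dehydrogenase complex turns it into acetyl-CoA. Kinases phosphorylate the complex and switch it off, and phosphatases switch it on again. The tricarboxylic acid cycle oxidises the acetyl group and passes electrons to the respiratory chain, on which the proximal tubule of the kidney cortex, rich in mitochondria, depends for its transport work.

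Depth, estimated from the smallest steps of the FPKM values and gene lengths, was about 31200000 to 42700000 fragments per library. The 32 genes were well covered, with at least 182 estimated fragments in every library for the lowest of them, Pdp1. The tissue label was borne out by proximal tubule genes such as Slc34a1, the phosphate transporter of that segment, at 569 to 1540 FPKM. No libraries were copies of each other. Of the injured libraries, vehicle library 2 lay nearest to sham: on the first principal component, which held 75.5 percent of the variance, it lay at -8 against 30.8 and 70.6 for vehicle libraries 1 and 3 and -61.7 to -52.5 for sham. TJ0113 library 2 was nearest to it, at 4.5, with libraries 1 and 3 at 25.4 and 51.1. Injury markers of the tubule, 8 of 8, and macrophage markers, 8 of 9, rose in both injured groups (limma, adjusted p below 0.05), where 31.3 percent of all genes tested were called higher in vehicle and 28.9 percent in TJ0113. The list of 18 proximal tubule markers summed to 42900 to 50000 FPKM in sham, 2380 to 28600 in vehicle and 8070 to 28800 in TJ0113. Such a sum is weighted toward the most abundant genes of the list, and means over the 18 markers on a log2 scale are given further on. In whole cortex, fewer cells of a type and less RNA per cell cannot be told apart.

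Most of the 32 genes had lower values in both injured groups than in sham, relative to other genes, and few of them passed the test singly. Differences were tested with limma on log2(FPKM + 1) for the 15453 genes whose mean reached 0.5 FPKM, and the threshold was an adjusted p (Benjamini-Hochberg over those genes) of 0.05. Because the median gene itself lay 0.30 higher in vehicle and 0.26 higher in TJ0113 than in sham (log2), differences are given relative to the median gene, with their standard errors (SE). The p-values belong to the differences before that subtraction. Replicates are separate samples by their labels, and nothing says more of the animals, so p-values measure the spread between these samples.

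Against sham, 5 of the 32 genes fell in vehicle and 0 rose (limma, Benjamini-Hochberg). Over all genes tested 36.7 percent were called in this contrast, 5.42 percent lower and 31.3 percent higher. The 5 were Pdha1, Pdp2, Suclg1, Suclg2 and Sucla2. In TJ0113, 8 fell and 0 rose, where 34.8 percent of all genes were called, 5.92 percent lower and 28.9 percent higher. These 8 were Pdha1, Dld, Pdhx, Pdk3, Pdp2, Suclg2, Sucla2 and Sdha. Thus 4 genes (Pdha1, Pdp2, Suclg2 and Sucla2) passed in both, 1 in vehicle alone, 4 in TJ0113 alone and 23 in neither. The contrasts share the sham libraries, and passing in one alone is not a difference between treatments: no gene passed in the direct comparison given further on.

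Genes that were not called lay on the same side. The median of the 32 differences from sham was -0.64 in vehicle, with a range from -1.25 (Suclg1) to 0.32 (Pdp1), and -0.65 in TJ0113, with a range from -1.35 (Sucla2) to 0.02 (Mpc2 and Pdp1). Values below the median gene were found for 31 of 32 genes in vehicle and 30 of 32 in TJ0113, against 50 percent of all genes by construction. Before the median was subtracted, 28 of 32 were negative in each, where all genes gave 24.7 and 28.6 percent. In vehicle, all 3 libraries lay below all 3 sham libraries for 16 of 32 genes, which held for 10.9 percent of all genes. In TJ0113 this was so for 18 of 32 genes, against 14.6 percent of all genes. The opposite order was found for Pdk1 in vehicle (45.9 percent of all genes) and for Mpc2 in TJ0113 (50.5 percent).

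**Figure D1:**
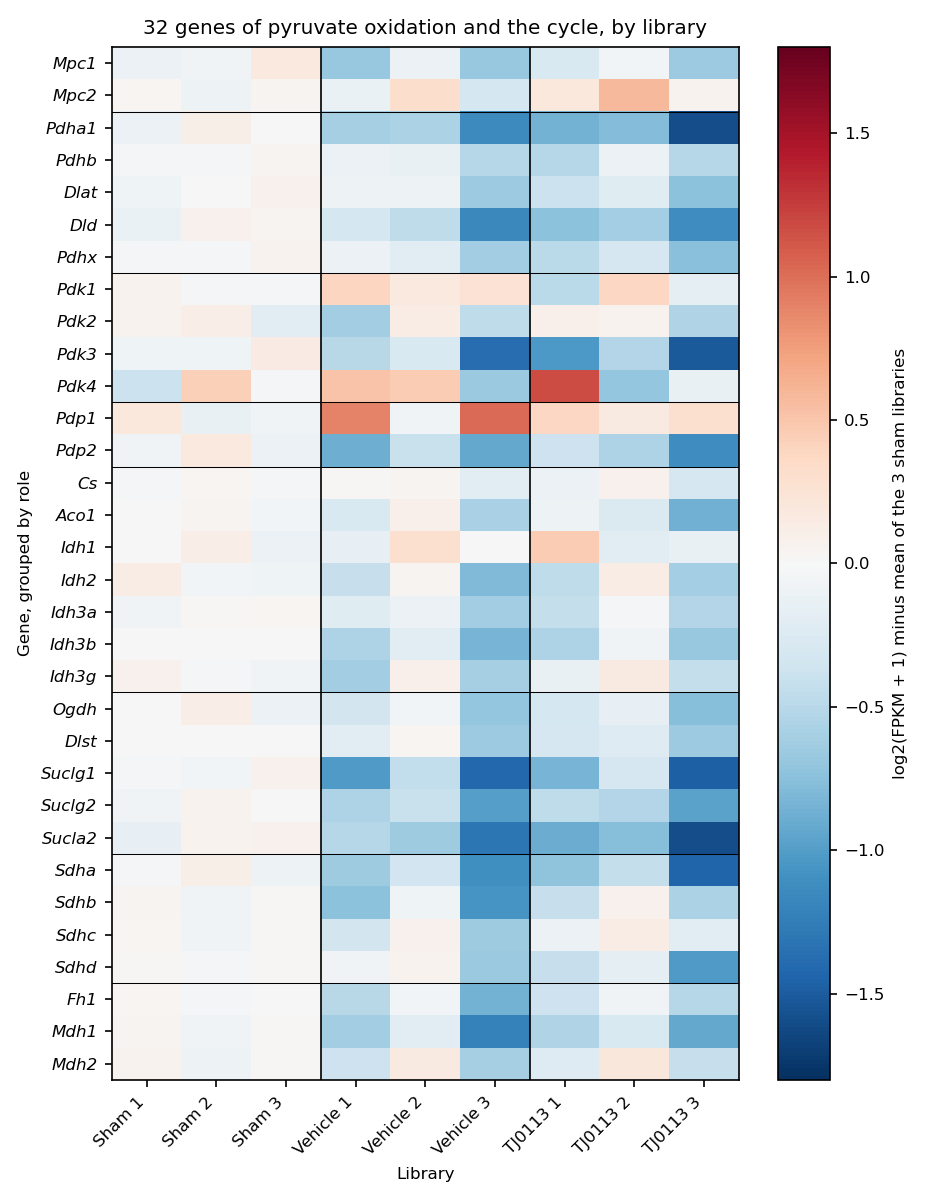
Log2(FPKM + 1) of the 32 genes in each of the 9 libraries, as the difference from the mean of the 3 sham libraries. Blue cells fill most of the columns of vehicle library 3 and TJ0113 library 3, and the columns of vehicle and TJ0113 library 2 are paler.

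**Figure D2:**
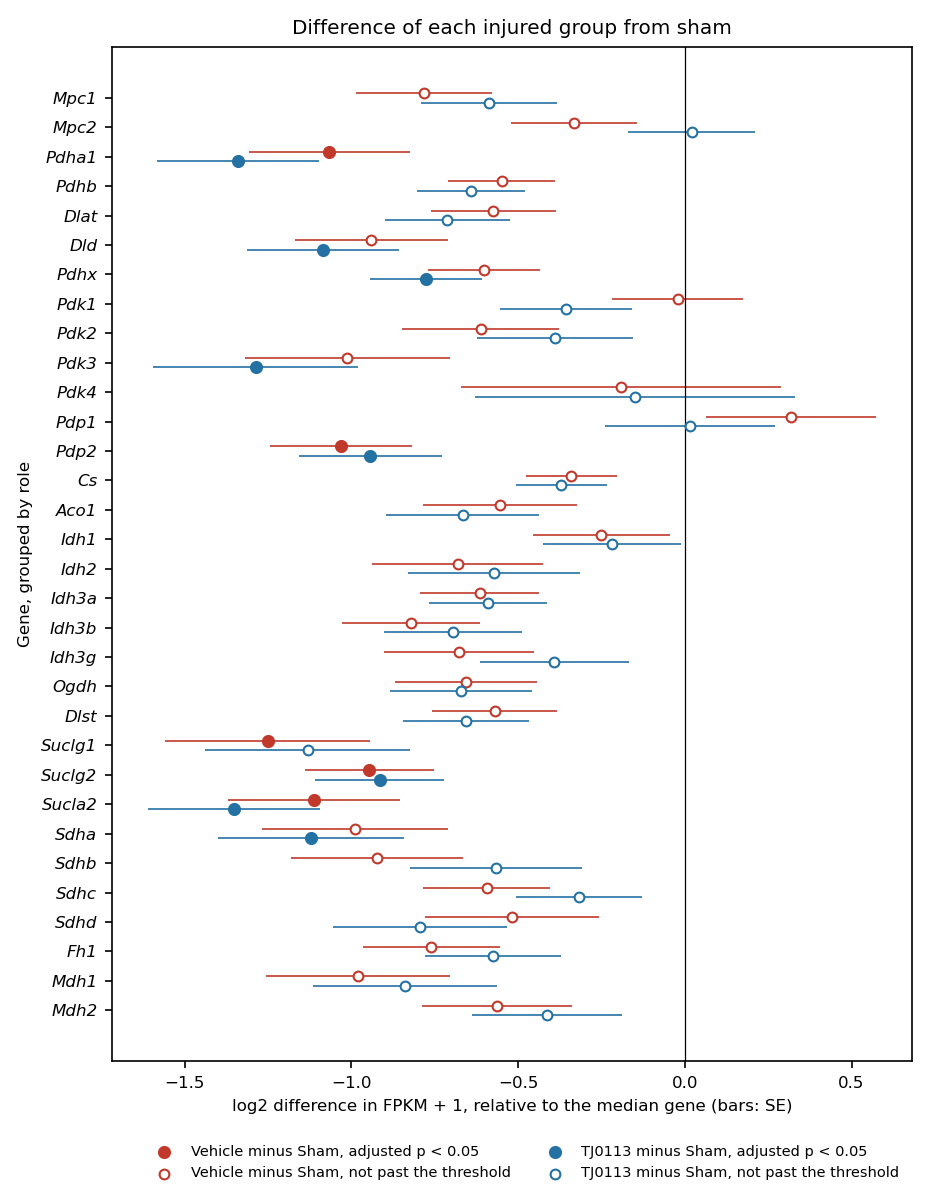
Log2 difference from sham relative to the median gene (x axis), with SE as bars, for the 32 genes ordered by role (red, vehicle; blue, TJ0113). Filled points passed the limma test, 5 in vehicle and 8 in TJ0113, and nearly all points lie left of 0.

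How many genes passed depended on single libraries. Vehicle library 3 was the lowest of its group for 27 of the 32 genes and library 2 the highest for 25. In TJ0113, library 3 was the lowest for 28 and library 2 the highest for 25, whereas in sham the lowest value fell to libraries 1, 2 and 3 for 10, 12 and 10 genes. Without vehicle library 2, 15 genes fell and Pdp1 rose against sham, whereas without vehicle library 3 none passed, and without any 1 of the sham libraries none passed either. Without vehicle library 1 the number was 2 (Dld and Sucla2), and without TJ0113 library 1 it was 3. Lower calls in vehicle among all genes, 15286 to 15557 tested per fit, moved likewise. They were 837 with all libraries and 440, 1362 and 322 without vehicle libraries 1, 2 and 3. Without sham libraries 1, 2 and 3 they were 280, 114 and 124, and without TJ0113 library 1 they were 650. For TJ0113, 4 genes passed without library 1, 11 without library 2 and 1 (Pdha1) without library 3, while without sham library 1, 2 or 3 the number was 2, 0 and 0. Lower calls in TJ0113 among all genes were 915 with all libraries and 593, 1013 and 203 without TJ0113 libraries 1, 2 and 3. Without sham libraries 1, 2 and 3 they were 380, 158 and 184. The median of the 32 differences stayed negative in all of these fits, from -0.91 to -0.41 in vehicle and from -0.80 to -0.44 in TJ0113.

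The same libraries were low for proximal tubule markers. As a mean log2 difference from the sham mean, the 32 genes lay at -0.32, -0.09 and -0.69 in vehicle libraries 1, 2 and 3 and at -0.32, -0.17 and -0.70 in TJ0113. The 18 proximal tubule markers lay at -1.47, -0.72 and -2.25, and at -0.82, -0.83 and -1.68. In both lists and both groups library 3 was the lowest. Of those 18 markers, 11 fell in vehicle and 8 in TJ0113 (limma), and all 18 were below the median gene in each, against 5.42 and 5.92 percent of all genes called lower and 50 percent below the median gene. The summed FPKM of the 32 genes was 2978 to 3028 in sham, 2237, 2821 and 1715 in the vehicle libraries and 2328, 2684 and 1754 in the TJ0113 libraries. The part that the lower proximal tubule markers have in the values of the 32 genes was not tested.

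**Figure D3:**
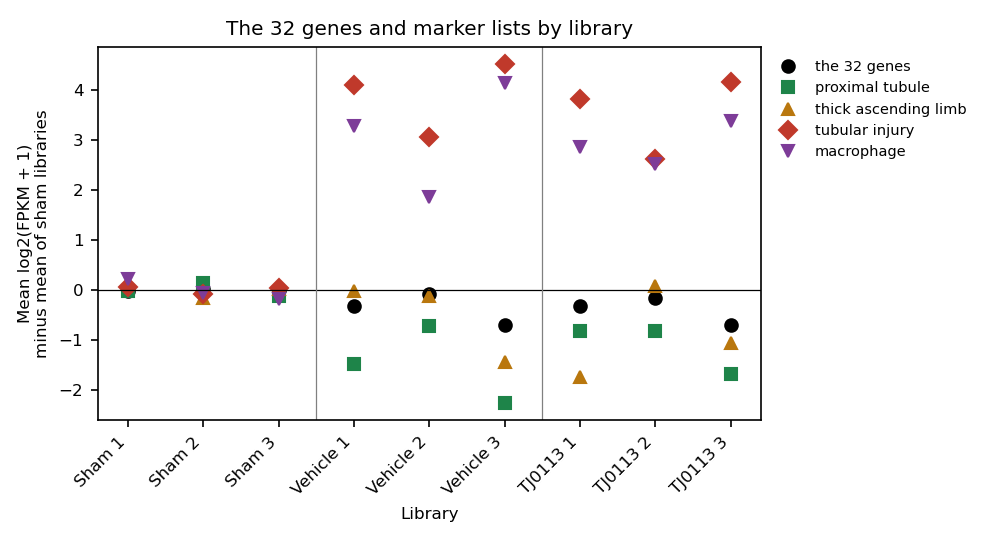
Mean log2(FPKM + 1) of gene lists in each library, as the difference from the sham mean (y axis). The 32 genes lie between -0.09 and -0.70 in the injured libraries, proximal tubule markers lie lower in each of them, thick ascending limb markers lie between -1.73 and 0.08, and injury and macrophage markers lie above sham.

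In sham cortex the levels of the 32 genes spanned from Mdh1, the cytosolic malate dehydrogenase, at 454 ± 19.4 FPKM (SD, n = 3), to Pdp1 at 1.38 ± 0.286. Sdhd and Sdha came next after Mdh1, at 250.1 ± 5.44 and 244 ± 17.2, and their ranges overlapped. Idh2 followed at 192 ± 16.6, and Idh1 at 149 ± 11.7 began a run of genes with overlapping neighbours that also held Ogdh, Sdhb, Pdha1, Mdh2 and Idh3g.

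The upstream sequences of the 4 genes that fell in both injured groups are shown because these are the members called in both contrasts with all libraries. Each is the 250 bases before the annotated start in RefSeq (GRCm38.p6), 5' to 3' on the gene's strand, at chrX:160138431-160138680 for Pdha1 (minus), chr8:104591222-104591471 for Pdp2 (plus), chr6:95718847-95719096 for Suclg2 (minus) and chr14:73552536-73552785 for Sucla2 (plus). Capitals mark matches, on either strand, to GGGCGG (the GC box, which SP1 binds) and CCAAT (the CCAAT box).
Pdha1: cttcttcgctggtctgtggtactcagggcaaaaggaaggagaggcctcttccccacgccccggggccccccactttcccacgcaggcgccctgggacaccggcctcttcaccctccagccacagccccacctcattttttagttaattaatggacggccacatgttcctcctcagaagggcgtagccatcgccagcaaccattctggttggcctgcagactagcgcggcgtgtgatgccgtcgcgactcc
Pdp2: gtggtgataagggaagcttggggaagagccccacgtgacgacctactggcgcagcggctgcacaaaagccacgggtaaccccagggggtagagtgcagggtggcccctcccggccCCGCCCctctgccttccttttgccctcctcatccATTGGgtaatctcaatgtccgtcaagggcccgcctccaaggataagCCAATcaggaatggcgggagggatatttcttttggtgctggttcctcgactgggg
Suclg2: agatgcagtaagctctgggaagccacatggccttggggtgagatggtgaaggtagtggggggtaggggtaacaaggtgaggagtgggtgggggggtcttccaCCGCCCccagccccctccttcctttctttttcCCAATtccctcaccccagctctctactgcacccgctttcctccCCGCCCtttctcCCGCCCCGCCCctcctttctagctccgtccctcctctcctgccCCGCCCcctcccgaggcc
Sucla2: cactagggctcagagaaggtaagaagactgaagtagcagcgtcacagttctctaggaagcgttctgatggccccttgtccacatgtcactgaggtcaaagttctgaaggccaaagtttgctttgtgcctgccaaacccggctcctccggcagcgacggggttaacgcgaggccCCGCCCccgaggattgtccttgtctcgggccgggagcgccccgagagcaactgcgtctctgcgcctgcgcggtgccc
The Pdha1 window held no match. The Pdp2 window held 1 GC box and 2 CCAAT boxes, the Suclg2 window 5 GC boxes, of which 2 share a base, and 1 CCAAT box, and the Sucla2 window 1 GC box. Among the 38 windows of the 29 genes with one in the table used, 60.5 percent held GGGCGG and 55.3 percent CCAAT, against 32.7 and 33.8 percent of all 32817 windows. The letters GCATGCG, a half-site of the factor NRF1, were in 10.5 percent (3.01 percent of all), CCGGAAG, bound by ETS factors, in 7.89 percent (6.90 percent), and TNAAGGTCA, an extended nuclear receptor half-site, in 0 percent (1.14 percent). None of the 3 was in the windows printed.

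The mitochondrial pyruvate carrier is built from the products of Mpc1 and Mpc2. Mpc1 measured 16.9, 17.4 and 20.6 FPKM in sham libraries 1, 2 and 3, 11.02, 17.0 and 11.01 in vehicle and 14.9, 17.7 and 11.3 in TJ0113. The groups overlapped, and the relative differences from sham of -0.78 ± 0.20 and -0.59 ± 0.20 did not pass (limma, adjusted p = 0.0838 and 0.227). The Mpc1 level is uncertain, because the table gives most of this sequence to a processed pseudogene, Mpc1-ps, whose transcript matched that of Mpc1 over 330 bases at 99.7 percent identity. Mpc1-ps was listed at 374, 394 and 448 FPKM in sham, 245, 234 and 105 in vehicle and 147, 197 and 98.8 in TJ0113. All injured libraries lay below all sham libraries there, and the relative differences were -1.45 ± 0.35 (adjusted p = 0.0334) in vehicle and -1.76 ± 0.35 (adjusted p = 0.0149) in TJ0113 (limma). Reads of the gene and its copy cannot be told apart from these values. Mpc2 measured 21.1, 19.2 and 21.3 FPKM in sham, 18.9, 25.9 and 16.3 in vehicle and 23.5, 31.4 and 21.6 in TJ0113. Each TJ0113 library was above each sham library, but the relative difference was 0.02 ± 0.19 and did not pass (limma, adjusted p = 0.255).

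The 5 genes of the pyruvate dehydrogenase complex all lay below sham in every injured library, in both groups. 1 of the 5 (Pdha1) fell in vehicle and 3 (Pdha1, Dld and Pdhx) in TJ0113, with medians of -0.60 and -0.78. Pdha1, on the X chromosome, encodes the alpha subunit of the E1 enzyme, which carries the sites that the kinases phosphorylate. It measured 115, 133 and 123 FPKM in sham, 81.6, 83.3 and 55.1 in vehicle and 68.0, 71.3 and 40.2 in TJ0113. The highest injured library was well under the lowest sham library, and the group means were 124 ± 9.18, 73.3 ± 15.8 and 59.8 ± 17.1 FPKM (SD, n = 3). The relative differences were -1.07 ± 0.24 in vehicle and -1.34 ± 0.24 in TJ0113 (limma, adjusted p = 0.0364 and 0.0135). The TJ0113 call held in all 10 alternatives that used all libraries, and the vehicle call in 8. Over all 19 alternatives, which include leaving out each library, they held in 17 and 12. The TJ0113 call was lost without sham library 2 or 3. The vehicle call was lost without any 1 of the sham libraries and without vehicle library 1 or 3. Map3k15, which overlaps Pdha1 on the opposite strand, reached 11.02 FPKM, and the sources used here do not say how strand was handled.

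Pdhb, the beta subunit of E1, changed less. It measured 47.2, 46.9 and 49.2 FPKM in sham, 44.5, 43.3 and 33.0 in vehicle and 33.2, 44.3 and 33.1 in TJ0113. Its relative differences of -0.55 ± 0.16 and -0.64 ± 0.16 did not pass (limma, adjusted p = 0.227 and 0.0909). The ratio of Pdha1 to Pdhb within a library, looked at after the values were seen, was 2.44, 2.84 and 2.504 in sham, 1.84, 1.92 and 1.67 in vehicle and 2.05, 1.61 and 1.22 in TJ0113. All 6 injured libraries were below the 3 sham libraries. This ratio does not depend on how libraries are scaled against each other.

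Dlat encodes E2, the acetyltransferase at the core of the complex, and it measured 25.6, 26.8 and 28.5 FPKM in sham, 25.2, 25.3 and 16.8 in vehicle and 20.4, 23.0 and 15.7 in TJ0113. In vehicle, libraries 1 and 2 were just under the lowest sham value, and neither difference passed (limma, adjusted p = 0.252 and 0.0860). Dld encodes E3, the dihydrolipoamide dehydrogenase that this complex shares with 2-oxoglutarate dehydrogenase. It measured 81.9, 93.6 and 92.0 FPKM in sham, 71.2, 64.8 and 39.3 in vehicle and 53.1, 57.8 and 40.4 in TJ0113. All injured libraries were lower than sham, at -0.94 ± 0.23 relative to the median gene in vehicle (limma, adjusted p = 0.0521) and by -1.09 ± 0.23 in TJ0113 (adjusted p = 0.0247). Pdhx, the protein that binds E3 to the core, measured 10.1, 10.03 and 10.8 FPKM in sham, 9.51, 8.91 and 6.36 in vehicle and 7.08, 8.19 and 5.68 in TJ0113. It fell in TJ0113, at -0.78 ± 0.17 (limma, adjusted p = 0.0416), while the vehicle value of -0.60 ± 0.17 did not pass (adjusted p = 0.167).

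**Figure D4:**
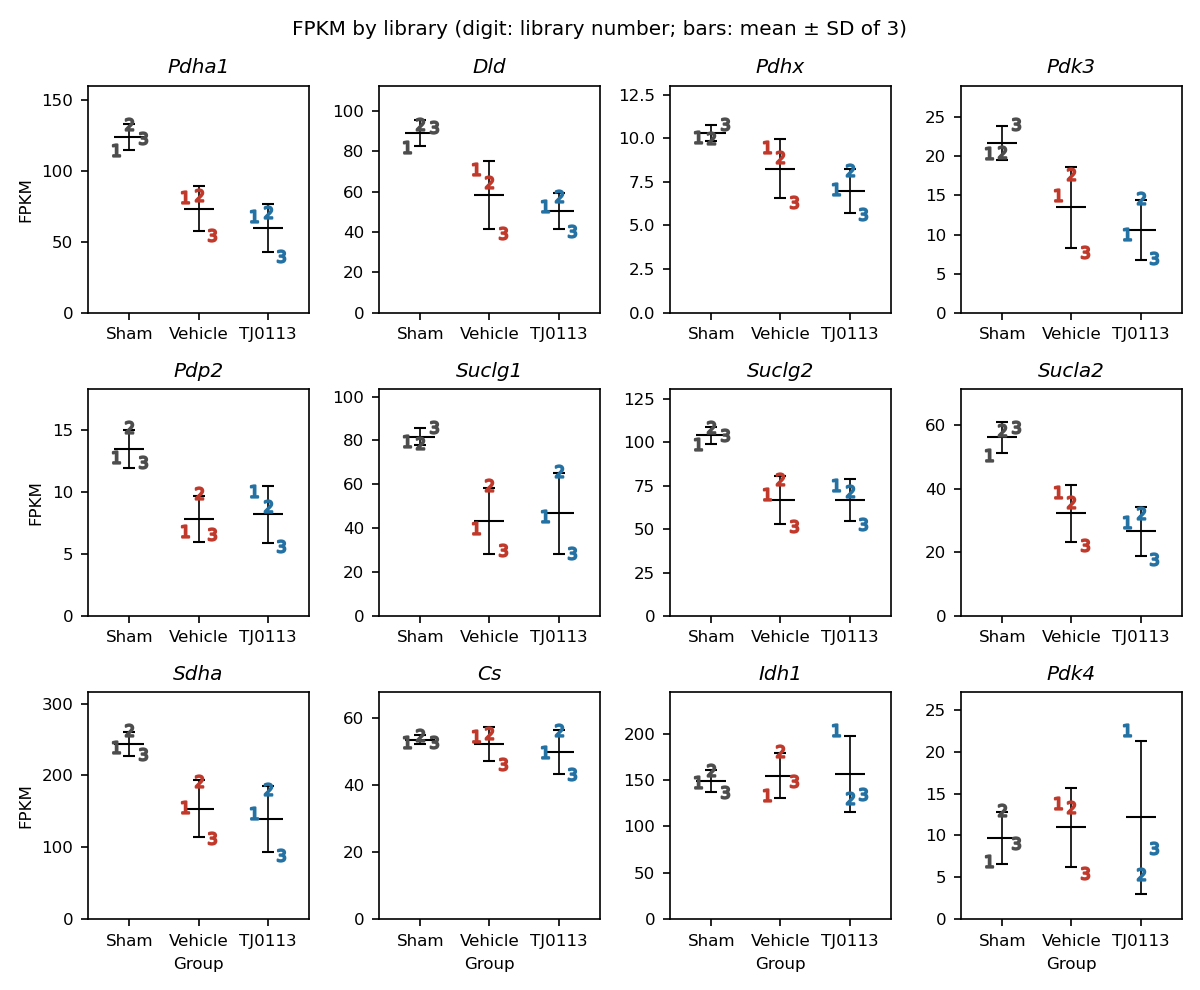
FPKM by library (y axis) for 12 of the genes in sham, vehicle and TJ0113. Digits are library numbers, and bars give the mean and SD of 3 libraries. Pdha1 is at 115 to 133 in sham and at 40.2 to 83.3 in the injured libraries, while the groups overlap for Cs, Idh1 and Pdk4.

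Of the 4 kinases that inactivate the complex, 0 passed in vehicle and 1, Pdk3, fell in TJ0113. Pdk2, the most abundant of them, measured 75.4, 78.2 and 63.3 FPKM in sham, 46.4, 78.9 and 52.4 in vehicle and 76.6, 75.3 and 49.4 in TJ0113. Vehicle libraries 1 and 3 and TJ0113 library 3 were below all sham libraries, vehicle library 2 was just above them and TJ0113 libraries 1 and 2 were within their range, and neither contrast passed (limma, adjusted p = 0.295 and 0.685). Pdk3 measured 20.4, 20.5 and 24.2 FPKM in sham, 15.1, 17.7 and 7.72 in vehicle and 10.1, 14.7 and 6.97 in TJ0113. All injured libraries were lower than sham, at -1.01 ± 0.31 relative to the median gene in vehicle (limma, adjusted p = 0.0893) and by -1.29 ± 0.31 in TJ0113 (adjusted p = 0.0318).

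Pdk4, the kinase known to rise on fasting and with fatty acid use, was the most variable of the 4. It measured 6.94, 13.0 and 9.14 FPKM in sham, 13.9, 13.3 and 5.56 in vehicle and 22.6, 5.42 and 8.46 in TJ0113, so that the highest and the lowest library of all 9 were both TJ0113. Its relative differences were -0.19 ± 0.48 and -0.15 ± 0.48 (limma, adjusted p = 0.870 and 0.865). Sham library 2, the highest sham library for Pdk4, also held adipocyte markers at a summed 114 FPKM against 7.34 to 10.2 in the other sham libraries. In libraries 1, 2 and 3 these markers summed to 37.9, 6.02 and 37.7 FPKM in vehicle and 9.07, 29.7 and 10.97 in TJ0113. In vehicle the sums of libraries 1 and 3 were nearly equal, while Pdk4 was highest in library 1 and lowest in library 3. Vehicle library 2 had the lowest sum and a Pdk4 value close to that of library 1. In TJ0113 the orders were opposite: library 1, the highest for Pdk4, had the lowest sum, and library 2, the lowest for Pdk4, had the highest. The part of adipocyte markers in Pdk4 was not tested. Pdk1, a target of the hypoxia factor HIF-1, measured 5.17, 4.74 and 4.74 FPKM in sham, 6.65, 5.67 and 6.06 in vehicle and 3.20, 6.61 and 4.22 in TJ0113. All vehicle libraries were above all sham libraries, but the difference was close to that of the median gene, at -0.02 ± 0.20 (limma, adjusted p = 0.277), and the TJ0113 libraries lay on both sides of sham.

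Pdk2 held 69.9, 67.1 and 62.5 percent of the summed kinase FPKM in the sham libraries, 56.6, 68.2 and 73.0 percent in vehicle and 68.1, 73.8 and 71.6 percent in TJ0113. It thus led in every library. The share of Pdk3 was 18.9, 17.6 and 23.8 percent in sham, 18.4, 15.3 and 10.8 percent in vehicle and 8.95, 14.4 and 10.1 percent in TJ0113. The TJ0113 libraries were all below sham in this share, and the vehicle libraries overlapped with it. The share of Pdk4 ranged from 5.31 to 20.1 percent, both in TJ0113.

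**Figure D5:**
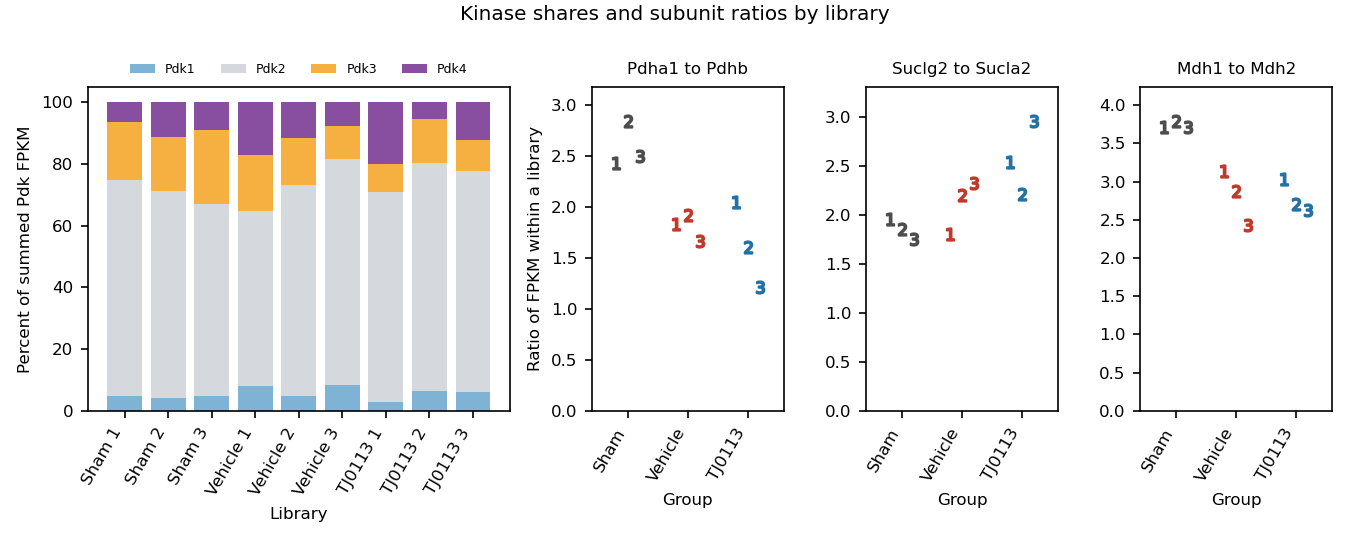
Left, each kinase as a percent of the summed FPKM of the 4 Pdk genes in each library; right, ratios of FPKM within a library, with digits as library numbers. Pdha1 to Pdhb is at 2.44 to 2.84 in sham and at 1.22 to 2.05 in the injured libraries, and Mdh1 to Mdh2 is at 3.72 to 3.79 and at 2.44 to 3.14.

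Of the 2 phosphatases that reactivate the complex, 1, Pdp2, fell in both injured groups. Pdp2 measured 12.8, 15.2 and 12.4 FPKM in sham, 6.84, 9.90 and 6.598 in vehicle and 10.1, 8.82 and 5.66 in TJ0113. All injured libraries were below sham, and the relative differences were -1.03 ± 0.21 in vehicle and -0.94 ± 0.21 in TJ0113 (limma, adjusted p = 0.0288 and 0.0366). Pdp1, the calcium-stimulated form, measured 1.71, 1.17 and 1.28 FPKM in sham, 3.39, 1.28 and 3.79 in vehicle and 2.08, 1.67 and 1.90 in TJ0113. Vehicle libraries 1 and 3 were high and library 2 was within the sham range, and the differences of 0.32 ± 0.25 and 0.02 ± 0.25 did not pass (limma, adjusted p = 0.0817 and 0.401). The ratio of Pdp2 to Pdp1, also looked at after the values were seen, was 7.48, 13.0 and 9.70 in sham, 2.02, 7.75 and 1.74 in vehicle and 4.86, 5.29 and 2.97 in TJ0113. Sham overlapped with vehicle through library 2 and not with TJ0113.

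None of the 7 genes from citrate synthase to the isocitrate dehydrogenases passed in either contrast, with medians of -0.62 and -0.57. Cs, citrate synthase, often taken as a measure of mitochondrial content, measured 52.7, 55.0 and 52.8 FPKM in sham, 54.5, 55.4 and 46.2 in vehicle and 49.9, 56.3 and 43.3 in TJ0113. The groups overlapped, with means of 53.5 ± 1.26, 52.1 ± 5.07 and 49.8 ± 6.49 FPKM (SD, n = 3), and adjusted p was 0.811 and 0.543 (limma). Set against Cs within each library, Pdha1 was at a ratio of 2.18, 2.42 and 2.33 in sham, 1.497, 1.504 and 1.19 in vehicle and 1.36, 1.27 and 0.928 in TJ0113, a ratio chosen after the values were seen. All injured libraries were below sham in this ratio. Pdha1 was itself below sham in each of them and Cs changed little, so the ratio adds no separate observation.

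Aco1 is the cytosolic aconitase, which also acts as an iron-regulatory protein. It measured 92.4, 95.4 and 89.2 FPKM in sham, 75.9, 98.4 and 61.1 in vehicle and 86.9, 76.9 and 50.2 in TJ0113, and vehicle overlapped with sham through library 2 (limma, adjusted p = 0.380 and 0.186). Idh1 and Idh2 make NADPH in the cytosol and the mitochondrion. Idh1 measured 148, 161 and 137 FPKM in sham, 134, 181 and 149 in vehicle and 204, 130.3 and 135 in TJ0113, so that the groups overlapped (limma, adjusted p = 0.866 and 0.880). Idh2 measured 212, 185 and 181, 144, 199 and 110.2 and 140.1, 211 and 125 FPKM in the same order (adjusted p = 0.248 and 0.355). Library 2 of each injured group lay within the sham range of Idh2, and the other libraries lay below it.

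The NAD-dependent isocitrate dehydrogenase of the cycle has a catalytic subunit from Idh3a and partners from Idh3b and Idh3g. Idh3a measured 32.9, 35.2 and 35.6 FPKM in sham, 29.6, 31.9 and 22.0 in vehicle and 25.3, 34.1 and 23.6 in TJ0113. Idh3b measured 106, 106 and 108, 72.6, 93.4 and 59.5 and 72.6, 102 and 66.1 FPKM, and all injured libraries were below sham. Its relative differences of -0.82 ± 0.21 and -0.70 ± 0.21 did not pass (limma, adjusted p = 0.0700 and 0.122). Idh3g measured 126, 117 and 114, 76.6, 126 and 78.3 and 108, 134 and 88.6 FPKM and overlapped with sham in both groups. The ratio of Idh3b to Idh3a stayed between 2.46 and 3.23 over the 9 libraries.

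The step from 2-oxoglutarate to succinate held the largest differences. Of its 5 genes, 3 fell in vehicle and 2 in TJ0113, with medians of -0.95 and -0.91. Ogdh and Dlst, the E1 and E2 of 2-oxoglutarate dehydrogenase, did not pass. Ogdh measured 135, 148 and 126 FPKM in sham, 107, 131 and 83.5 in vehicle and 109, 123 and 79.5 in TJ0113 (limma, adjusted p = 0.194 and 0.154). Dlst measured 58.8, 58.4 and 58.0, 51.0, 59.6 and 36.6 and 47.4, 49.4 and 36.8 FPKM (adjusted p = 0.259 and 0.123). Both genes were below sham in every TJ0113 library, and vehicle library 2 was within the sham range of Ogdh and above that of Dlst.

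Succinyl-CoA ligase pairs the alpha subunit from Suclg1 with a beta subunit that sets the nucleotide made: GTP with Suclg2, ATP with Sucla2. Suclg1 measured 79.8, 79.0 and 86.1 FPKM in sham, 39.9, 59.9 and 30.1 in vehicle and 45.4, 65.9 and 28.8 in TJ0113. No injured library reached sham, and the group means were 81.6 ± 3.91, 43.3 ± 15.2 and 46.7 ± 18.6 FPKM (SD, n = 3). It fell, at a relative difference of -1.25 ± 0.31 in vehicle (limma, adjusted p = 0.0389), and the TJ0113 value of -1.13 ± 0.31 was just over the threshold (adjusted p = 0.0534). Suclg2 measured 99.1, 109 and 104 FPKM in sham, 70.5, 78.8 and 51.6 in vehicle and 75.3, 71.8 and 52.7 in TJ0113. It fell, at a relative difference of -0.95 ± 0.19 and -0.91 ± 0.19 (limma, adjusted p = 0.0310 and 0.0308). A processed pseudogene of Suclg2, Gm15163, identical over 98.9 percent of 1302 aligned bases, was listed at 6.02 to 25.0 FPKM, so a part of the reads may have gone to either.

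Sucla2 measured 50.5, 58.6 and 59.4 FPKM in sham, 39.0, 35.7 and 22.2 in vehicle and 29.6, 32.4 and 17.8 in TJ0113. It fell, at a relative difference of -1.11 ± 0.26 and -1.35 ± 0.26 (limma, adjusted p = 0.0368 and 0.0153), and all injured libraries were below sham. The ratio of Suclg2 to Sucla2 was 1.96, 1.86 and 1.76 in sham, 1.81, 2.21 and 2.33 in vehicle and 2.54, 2.21 and 2.96 in TJ0113. The TJ0113 libraries were all above sham, and vehicle library 1 was within the sham range. With 3 libraries a group, an exact permutation test of such a ratio cannot go below p = 0.1, so none was run.

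Succinate dehydrogenase belongs to both the cycle and the respiratory chain, where it is complex II. Of its 4 genes, 0 passed in vehicle and 1, Sdha, fell in TJ0113. Sdha, the flavoprotein that oxidises succinate, measured 239, 263 and 229.6 FPKM in sham, 157, 192 and 113 in vehicle and 148, 181 and 89.3 in TJ0113. All injured libraries were below sham, at -0.99 ± 0.28 in vehicle (limma, adjusted p = 0.0755) and -1.12 ± 0.28 in TJ0113 (adjusted p = 0.0406). Sdhb, the iron-sulfur subunit, measured 141, 129 and 137 FPKM in sham, 81.1, 128 and 64.5 in vehicle and 101, 143 and 91.0 in TJ0113, and TJ0113 library 2 was the highest of all 9. Its differences of -0.92 ± 0.26 and -0.57 ± 0.26 did not pass (limma, adjusted p = 0.0792 and 0.363). The membrane anchors Sdhc and Sdhd did not pass either. Sdhc measured 97.1, 91.2 and 96.6, 75.4, 100.5 and 60.3 and 88.3, 104 and 82.8 FPKM, and Sdhd measured 253, 244 and 253, 240.1, 262 and 157 and 187, 223 and 123. Sdhd was below sham in all TJ0113 libraries, and library 2 of vehicle was above all sham libraries.

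At the end of the cycle, fumarase (Fh1) and the malate dehydrogenases gave medians of -0.76 and -0.58, and none of the 3 passed. Fh1 measured 67.9, 64.2 and 65.9 FPKM in sham, 46.6, 63.8 and 36.2 in vehicle and 50.6, 63.4 and 46.1 in TJ0113. All injured libraries were below sham, and adjusted p was 0.0968 and 0.244 (limma). Kmo, on the opposite strand over Fh1, reached 37.5 FPKM, so reads of both genes cannot be told apart if strand was not used. Mdh1 measured 470.1, 432 and 459 FPKM in sham, 294, 392.3 and 195 in vehicle and 312, 376 and 239 in TJ0113, also with every injured library below sham (limma, adjusted p = 0.0753 and 0.123). Mdh2, the mitochondrial enzyme, measured 126, 114 and 123, 93.7, 136 and 80.0 and 103, 139 and 90.8 FPKM (adjusted p = 0.356 and 0.612). Library 2 of each injured group was above all sham libraries for Mdh2. The ratio of Mdh1 to Mdh2 was 3.72, 3.79 and 3.72 in sham, 3.14, 2.88 and 2.44 in vehicle and 3.04, 2.70 and 2.63 in TJ0113, and all injured libraries were below the sham ratio.

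Between the injured groups no difference was found at this depth and number of libraries. TJ0113 against vehicle gave 0 calls among the 32 genes, as among all 15453 genes (0 percent; limma, Benjamini-Hochberg). Of all genes, 927 had an unadjusted p below 0.05, and 0 of these were among the 32. No other setting of this test gave a call among the 32 either. The median of the 32 differences relative to the median gene was 0.03, with a range from -0.34 (Pdk1) to 0.36 (Sdhb), and adjusted p ran from 0.81 to 0.999. For no gene did the 3 TJ0113 libraries lie outside the vehicle libraries, which 2.96 percent of all genes did on the higher and 4.39 percent on the lower side. For Pdha1 the relative difference was -0.28 ± 0.24, for Pdp2 0.09 ± 0.21, for Suclg1 0.12 ± 0.31 and for Sucla2 -0.24 ± 0.26 (SE). A p above the threshold does not show that the groups are alike.

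Genes next to the 32 in the pathway were looked at as a list of 58, of which 56 were tested. In vehicle 9 rose and 9 fell, and in TJ0113 8 rose and 9 fell, with medians of -0.33 and -0.35. Over all genes tested, 31.3 percent were called higher and 5.42 percent lower in vehicle, and 28.9 and 5.92 percent in TJ0113. The numbers that rose and fell depended on scaling: with median-ratio scaling 4 rose and 15 fell in vehicle, and 4 and 17 in TJ0113, while quantile normalization gave 2 and 12, and 2 and 15. Calls among all genes moved too. Median-ratio scaling called 2640 higher and 2075 lower of 15373 genes in vehicle, and 3158 and 2399 in TJ0113. Quantile normalization called 2041 and 2320 of 15453 genes in vehicle, and 2391 and 2854 in TJ0113. Oxct1, which lets tissue use ketone bodies, measured 412, 399.9 and 404 FPKM in sham, 133, 204 and 55.1 in vehicle and 97.4, 224 and 80.2 in TJ0113. Its relative differences of -2.11 ± 0.48 and -2.0 ± 0.48 (limma, adjusted p = 0.0223 and 0.0248) were larger than those of any of the 32. Acat1, the mitochondrial thiolase that works after it, fell, at a relative difference of -1.89 ± 0.48 and -1.83 ± 0.48 (adjusted p = 0.0321 and 0.0345).

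Pdpr encodes the regulatory subunit of the pyruvate dehydrogenase phosphatase. It measured 7.19, 9.60 and 5.63 FPKM in sham, 3.82, 3.58 and 3.34 in vehicle and 2.49, 2.92 and 1.76 in TJ0113. It fell, at a relative difference of -1.16 ± 0.19 and -1.57 ± 0.19 (limma, adjusted p = 0.0140 and 0.00709), and no injured library reached sham. Pcx, pyruvate carboxylase, which feeds pyruvate into the cycle as oxaloacetate, measured 149.6, 177 and 153, 49.6, 108 and 39.4 and 92.6, 106 and 38.0 FPKM. It fell in vehicle, at -1.70 ± 0.43 (limma, adjusted p = 0.0336), and the TJ0113 value of -1.40 ± 0.43 did not pass (adjusted p = 0.0656). Dhtkd1, an enzyme of lysine breakdown related to Ogdh, fell, at a relative difference of -1.70 ± 0.23 and -1.09 ± 0.23 (adjusted p = 0.00820 and 0.0246). Ppargc1a, the coactivator PGC-1 alpha of mitochondrial genes, measured 10.2, 9.73 and 9.81, 7.95, 6.84 and 6.07 and 5.53, 7.39 and 5.82 FPKM. It fell, at a relative difference of -0.76 ± 0.14 and -0.86 ± 0.14 (limma, adjusted p = 0.0311 and 0.0144).

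Genes that rose included the glycolytic enzyme Pklr, the pyruvate kinase of liver and proximal tubule, at 7.35, 7.72 and 6.89 FPKM in sham, 18.5, 16.2 and 25.7 in vehicle and 20.9, 10.8 and 14.6 in TJ0113. All injured libraries were above sham, by 1.02 ± 0.23 and 0.67 ± 0.23 (limma, adjusted p = 0.00907 and 0.0174). The lactate exporter Slc16a3 rose by 0.42 ± 0.20 and 0.35 ± 0.20 (adjusted p = 0.0253 and 0.0428). Pck2, mitochondrial phosphoenolpyruvate carboxykinase, rose by 0.50 ± 0.21 and 0.69 ± 0.21 (adjusted p = 0.0211 and 0.0126). Slc25a22, a mitochondrial glutamate carrier, rose by 0.35 ± 0.12 and 0.43 ± 0.12 (adjusted p = 0.0110 and 0.00905), and Ogdhl, a relative of Ogdh, by 0.30 ± 0.21 and 0.40 ± 0.21 (adjusted p = 0.0498 and 0.0372). In vehicle alone the test was also passed upward by the malic enzyme Me2 (0.25 ± 0.13), the pyruvate kinase Pkm (0.41 ± 0.23) and the factor Nrf1 (0.20 ± 0.14). In TJ0113 alone it was passed upward by Lipt2, for lipoate transfer (0.14 ± 0.13), and by the succinate dehydrogenase assembly factors Sdhaf1 (0.26 ± 0.14) and Sdhaf4 (0.27 ± 0.17). With quantile normalization Pklr was still called higher in both groups and Pck2 in TJ0113, and the other genes of this paragraph were not called.

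The other pathway genes that fell supply acetyl-CoA or carry intermediates. Acss1, the mitochondrial acetyl-CoA synthetase, was at -1.02 ± 0.24 and -1.0 ± 0.24 (limma, adjusted p = 0.0406 and 0.0391), and the 2-oxodicarboxylate carrier Slc25a21 at -1.08 ± 0.18 and -0.81 ± 0.18 (adjusted p = 0.0151 and 0.0434). Acss2, the cytosolic synthetase, fell in vehicle alone, at -1.41 ± 0.34 (adjusted p = 0.0323). ATP-citrate lyase (Acly) and the aspartate-glutamate carrier Slc25a13 fell in TJ0113 alone, at -0.78 ± 0.16 and -1.07 ± 0.27 (adjusted p = 0.0365 and 0.0475). None of the 56 passed between TJ0113 and vehicle (0 percent of all genes).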

How the data were processed

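RNA from renal cortex (TRIzol, 1 µg) went into paired-end mRNA libraries with an Abclonal kit, per the labels' protocols. HISAT2 is named, without a version, per the submitters' processing notes; the sources used here name no counting tool, genome build, annotation or strand handling. The deposited values are FPKM per gene, 1 column for each of 9 samples, normalized by the authors. Symbols came from GENCODE M21 and matched 33893 of 34669 genes (97.8 percent). Library sizes were estimated from the steps of the FPKM values and the union exon lengths of that release: 98.7 to 99.0 percent of values under 20 fragments lay within 0.02 fragments of a multiple of 0.5.

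Differences were fitted with limma 3.58.1 (R 4.3.3, variance trend) on log2(FPKM + 1), a scale that understates changes of low genes, in 1 fit of the 9 libraries with no scaling between them, for genes whose mean reached 0.5 FPKM. The fit was run on simulated libraries that had the same spread in all 3 groups. That run cannot show how the test behaves where groups differ in spread. They do for genes such as Idh3b, with an SD of 0.876 FPKM in sham, 17.1 in vehicle and 19.1 in TJ0113. Alternatives were a pseudocount of 0.1, no filter, a mean of at least 2 FPKM, equal sums (with and without mitochondrially encoded genes), median-ratio scaling, quantile normalization, no trend, only the 2 groups compared, a replicate block, and each library left out. Near copies were sought with blastn 2.17.0+ at 97 percent identity over at least 300 bases. All 32 genes are reported by role, and other pathway genes where they passed the test, except some that are not reported here; Mpc1-ps and Gm15163 were added after their values were seen. The members and lists were chosen with earlier results of these data known. Counting error is largest for the other pathway genes of low level, with as few as 19 estimated fragments in a library for Slc16a3, 80 for Lipt2 and 91 for Sdhaf1. For the 32 genes the number of libraries limits the precision.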

Additional observations from a re-analysis of the deposited data

How the results depend on the processing

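No called difference of a single gene changed sign. Against sham, the number of the 32 genes that fell in vehicle (5) went to 0 without the filter, 2 with equal FPKM sums (Pdp2 and Suclg1) and 9 with median-ratio scaling; in TJ0113 (8) it went to 2 without the filter (Pdha1 and Sucla2). Without the filter, over 34669 genes, calls among all genes dropped from 5676 to 2933 in vehicle and from 5384 to 3205 in TJ0113. In vehicle, 837 of all genes were called lower with values as deposited, 569 with equal sums and 2075 with median-ratio scaling. The sources used here do not say whether replicate numbers pair the samples, and this was not tested. Same-numbered vehicle and TJ0113 libraries correlated at -0.06, 0.5 and 0.56 in their deviations from the group means. Vehicle library 2 with TJ0113 library 3, and vehicle library 3 with TJ0113 library 2, correlated at -0.54. Same-numbered sham libraries correlated at -0.08, -0.08 and -0.24 with vehicle and at -0.15, 0.03 and 0.03 with TJ0113. With the replicate block, 10 genes fell and 1 (Pdp1) rose in vehicle, and 9 fell in TJ0113. Leaving out each library, members that fell ranged from 0 to 15 in vehicle and 0 to 11 in TJ0113, members that rose from 0 to 1 and 0 to 0, the median from -0.91 to -0.41 and -0.80 to -0.44, and calls among all genes from 852 to 8826 and 1249 to 7336. TJ0113 against vehicle stayed at 0 in every such fit, with a median from -0.21 to 0.23; that median, 0.03 with all libraries, was -0.0051 without the filter and -0.04 with quantile normalization, so it has no direction. Of the calls among all genes, 85.3 percent were higher in vehicle (91.1 when sums were equal, 56.0 by median ratio and 46.8 by quantiles) and 83.0 percent in TJ0113 (84.8, 56.8 and 45.6), so that by quantiles lower calls outnumbered higher ones. As fitted, 26 to 31 of the 32 genes were below sham in vehicle under these scalings. Of 2483 alternatives for single genes, 2159 kept their side of the threshold, 282 lost the call and 42 gained it. These cover all 32 genes in all 3 contrasts, called or not, so the 2159 do not measure how stable the calls were. A call can be lost only where a gene was called. Each call among the 32 genes held in 12 to 17 of its 19 alternatives. Among the 2159 were 72 that changed sign between values under 2 SE, which were not counted as directions. The causes were not tested.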

Other observations

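Nnt, which encodes the mitochondrial transhydrogenase that makes NADPH from NADH and is deleted in the C57BL/6J substrain, was listed at 0.091 to 0.162 FPKM in all 9 libraries, with as few as 23 estimated fragments in a library, and was not tested for that reason. The labels give the strain as C57BL/6 without a substrain. The share of FPKM from mitochondrially encoded genes was 25.5 to 27.7 percent in sham, 18.6, 23.3 and 12.1 percent in vehicle libraries 1, 2 and 3, and 19.3, 24.3 and 25.5 percent in TJ0113. TJ0113 library 3 thus had a share like that of sham while it was the lowest library of its group for 28 of the 32 genes.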
